A study of Mus musculus with 2 samples.

Results

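The genes described here encode the interleukin 7 (IL-7) receptor, the kinases and transcription factors it signals through, and the inhibitors that switch it off. They are Il7r and Il2rg, Jak1 and Jak3, Stat5a and Stat5b, and Cish, Socs1, Socs2 and Socs3. They were chosen by symbol, by matching the transcripts of the deposited table to the GENCODE M21 annotation (GRCm38). All 10 genes were found among 36980 symbols, with 51 of their 55 annotated transcripts. RNA came from mouse pro-B cells, the bone marrow precursors of B cells, sorted by flow cytometry and grown for 4 days with IL-7 at 5 ng/µl. One culture carried the Setdb1 genotype C/C and the other Δ/Δ, where Δ marks the deleted gene for the H3 lysine 9 methyltransferase SETDB1, and both carried bcl2-tg, a transgene of the survival gene Bcl2. With 1 library for each genotype, differences had no check by replicates and no test was possible, and the intervals below cover counting error only. The labels do not give the promoter of the transgene, how or in which exons Setdb1 was deleted, or the number, sex, age or strain of the mice.

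IL-7 binds a receptor made of the IL-7 receptor α chain (Il7r) and the common γ chain (Il2rg). JAK1 and JAK3, which sit on those chains, then phosphorylate STAT5A and STAT5B, which enter the nucleus and switch on genes for survival and growth. Among the genes that STAT5 switches on are those for CISH and the SOCS proteins, which bind phosphorylated receptors or kinases and damp the signal. Mouse pro-B cells depend on IL-7 for growth, in the marrow and in culture.

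STAT5 dimers bind the palindrome TTCNNNGAA, which reads the same on either strand. It was searched in the RefSeq promoter windows (GRCm38.p6, 250 bases before to 50 after a gene's start). These were found for 9 of the 10 genes, all but Socs2, with 11 windows in all. Windows of 3 genes held the palindrome, and 8.30% of all 32851 promoter windows did. Cish held it 2 times, as did 0.457% of all windows with 2 or more copies. The search is shown because Cish is the gene that passed the size rule of the comparison. The stretches of all 3 genes with the palindrome are printed. Each is 30 bases, 5′ to 3′ on the gene's own strand, with the motif in capitals.
Cish (chr9:107296654-107296683, plus strand): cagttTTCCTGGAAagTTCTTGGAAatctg
Il7r (chr15:9529999-9530028, minus strand): gttcaggagcTTCAGGGAAtaccaagatgc
Socs3 (chr11:117969501-117969530, minus strand): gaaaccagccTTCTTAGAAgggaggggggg
The Cish copies began at the first and the twelfth base of the RefSeq gene and did not overlap. None of the listed Cish transcripts starts at that base, and the longest coding one starts upstream of it, at 107296026. The Il7r copy began 142 bases, and the Socs3 copy 154 bases, before the start. A match describes the letters only, and binding was not measured in these data.

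Cish was the only gene of the group that passed the size rule. Levels are RPKM, reads per kilobase of transcript scaled to sequencing depth, as the authors deposited them. The size rule for calling a gene higher or lower was a value of log2((Δ/Δ + 0.5) / (C/C + 0.5)), with 0.5 RPKM added to each level, of at least 1 or at most -1. Each gene was represented by its transcript of highest mean RPKM. All 10 genes were measured, meaning 1 RPKM or more in a library, and 1 was higher and 0 were lower. Over all 12556 measured genes 6.28% were higher and 6.66% lower, so 1 call among 10 genes is near the background share. The median log2 ratio was -0.04 over the 10 genes and -0.09 over all measured genes. By these transcripts the signalling chain from the receptor to STAT5 stayed within ratios of 0.778 to 1.14, while the inhibitors ran from 0.657 to 2.33. By the longest coding transcripts these ranges were 0.818 to 1.17 and 0.657 to 2.36.

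**Figure D1:**
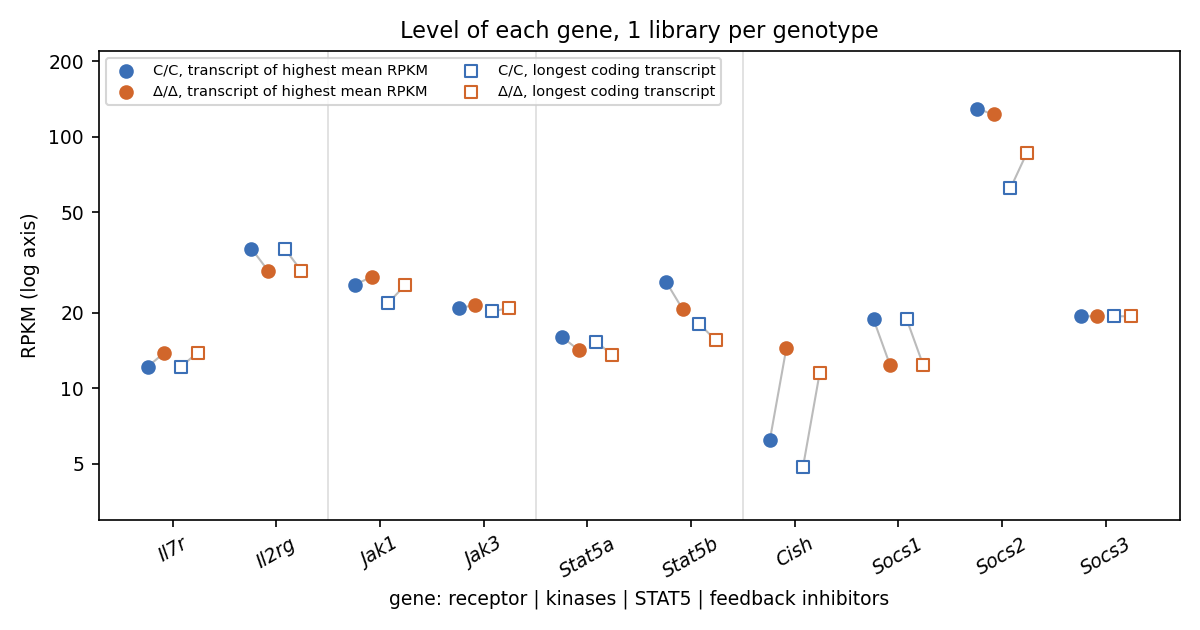
RPKM of each gene on a log axis in C/C (blue) and Δ/Δ (orange), with 1 library per genotype, for the transcript of highest mean RPKM (filled circles) and the longest coding transcript (open squares). Cish rises from 6.22 to 14.5 RPKM, Socs1 goes from 18.8 to 12.3 RPKM, and the squares and circles of Socs2 slope in opposite directions.

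The libraries held 170.6 M reads (C/C) and 193.3 M reads (Δ/Δ), recovered from the values themselves. Setdb1 measured 17.0 and 12.6 RPKM over its whole transcript, which does not show how complete the deletion was. All 10 of the pro-B markers listed for the check of cell type were measured in both libraries, at 27.3 RPKM or more in C/C and 6.64 RPKM or more in Δ/Δ. Of them 4 were lower in Δ/Δ (Cd79a, Cd79b, Pax5 and Rag1) and 0 higher, with a median log2 ratio of -0.78. Over all measured genes 6.66% were lower and 6.28% higher. The markers did not all go one way, since 2 had a higher level in Δ/Δ without passing the rule. These were Dntt (142 and 256 RPKM) and Vpreb1 (745 and 893 RPKM). Several lists of markers of other cells had higher sums in Δ/Δ. The summed level of 12 myeloid markers was 22.6 RPKM in C/C against 230 RPKM in Δ/Δ, with all 12 above their C/C level. Lyz2 (9.01 and 120 RPKM), S100a9 (5.44 and 56.2 RPKM) and S100a8 (0.463 and 30.8 RPKM) led that list. The sums were 1.82 and 13.5 RPKM for 8 dendritic cell markers and 9.05 and 77.1 RPKM for 9 erythroid and platelet markers, mostly globin RNA. Above their C/C level were 6 of the 8 and 8 of the 9. Zbtb46, Xcr1 and Klf1, all below 1 RPKM, were below it. The 9 T lineage markers summed to 24.8 and 60.2 RPKM, nearly all of it Thy1 (23.7 and 55.7 RPKM). The 6 natural killer cell markers summed to 2.05 and 1.58 RPKM, with Ncr1 and Gzma at 0 in both, the 6 mast cell and basophil markers to 0.00400 and 1.95 RPKM, with Mcpt4 at 0 in both, and the 7 stromal markers to 0.488 and 0.966 RPKM. The part of such cells in the levels below was not tested. In bulk RNA, fewer cells of a type and less RNA per cell cannot be told apart.

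The receptor genes differed little between the libraries. Il7r (ENSMUST00000003981, chromosome 15, 9505788 to 9529835, minus strand), the chain that gives the receptor its ligand, measured 12.2 RPKM in C/C against 13.8 RPKM in Δ/Δ. Its ratio was 1.14 (95% counting interval 1.09 to 1.19), from 7362 and 9469 reads. Of its 4 annotated transcripts the table listed 1, so the levels of its shorter forms are not analysed here. Il2rg (ENSMUST00000033664, chromosome X, 101264378 to 101268255, minus strand), the chain shared with the receptors of IL-2, IL-4, IL-9, IL-15 and IL-21, measured 35.9 and 29.3 RPKM, a ratio of 0.818 (interval 0.786 to 0.851). The direction of Il7r and Il2rg thus differed, and the level of Il7r was 0.340 of that of Il2rg in C/C (interval 0.325 to 0.354) and 0.472 in Δ/Δ (interval 0.453 to 0.491).

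Beside the value of Il2rg stand an overlapping gene and its place on the X chromosome. Of the 101-base windows of its transcript, 40.1% also lie in Gm20489, an overlapping gene on the same strand (15.0 and 14.0 RPKM), so their reads cannot be assigned to either. The gene is X-linked, and the libraries differed in Xist (0.0940 and 23.7 RPKM), the RNA that coats the inactive X chromosome of female cells. The median log2 ratio of 379 measured X-linked genes was -0.03, beside -0.29 for Il2rg. Genotype and the difference in Xist cannot be told apart. The other 3 Il2rg transcripts, which cover fewer of its exons, had ratios of 0.884 to 0.981.

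Jak1 and Jak3, the kinases bound to the α and the γ chain, also stayed near a ratio of 1. Jak1 was represented by a non-coding transcript over its 5′ exons, ENSMUST00000155328, at 25.8 and 27.7 RPKM, a ratio of 1.07 (interval 1.001 to 1.15). The full coding transcript (ENSMUST00000102781, chromosome 4, 101152367 to 101265282, minus strand) measured 21.9 and 25.6 RPKM, a ratio of 1.17 (interval 1.14 to 1.21). All 8 listed Jak1 transcripts lay between 1.0 and 1.17. Jak3 (ENSMUST00000110012, chromosome 8, 71677551 to 71688558, plus strand), the kinase found mainly in blood cells, measured 20.9 and 21.4 RPKM, and its ratio of 1.02 had an interval of 0.988 to 1.05. Its 5 transcripts ran from 1.02 to 1.04. Its longest coding transcript, ENSMUST00000051995, shares its 3′ end with Insl3 on the same strand (7.54 and 8.28 RPKM), whereas the transcript named above shares no base with it.

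Stat5a and Stat5b, adjacent genes on chromosome 11 with near-identical proteins, were somewhat lower in level in Δ/Δ without reaching the size rule. Stat5a (ENSMUST00000107356, 100859656 to 100885169, plus strand) measured 15.9 RPKM in C/C against 14.1 RPKM in Δ/Δ, which is a ratio of 0.888 (interval 0.854 to 0.924). Stat5b was represented by ENSMUST00000126266, a non-coding transcript over its 5′ exons, at 26.5 and 20.6 RPKM (ratio 0.778, interval 0.724 to 0.835). Its longest coding transcript (ENSMUST00000107358, 100780731 to 100822528, minus strand) measured 18.0 and 15.5 RPKM (ratio 0.860, interval 0.833 to 0.887). All 7 Stat5a transcripts had ratios of 0.887 to 0.908, and all 3 Stat5b transcripts of 0.778 to 0.860.

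The balance between the 2 STAT5 genes differed little between the libraries. By the longest coding transcripts Stat5a made up 45.9% of their summed RPKM in C/C (interval 45.1 to 46.8%) and 46.8% in Δ/Δ (interval 45.9 to 47.6%). By the transcripts of highest RPKM it was 37.6% (interval 36.3 to 38.9%) and 40.7% (interval 39.3 to 42.2%). The first pair of intervals overlaps and the second does not, so a difference in balance depends on the transcript taken. Sequence shared by the genes covers little of their longest coding transcripts. Of the 101-base windows of these, 6.9% for Stat5a and 5.1% for Stat5b occur in the other gene. The shared part of the shorter Stat5b transcript, ENSMUST00000126266, was not measured. Stat5a also shares 72 exonic bases with Stat3 on the opposite strand, and the library kit did not mark strand.

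**Figure D2:**
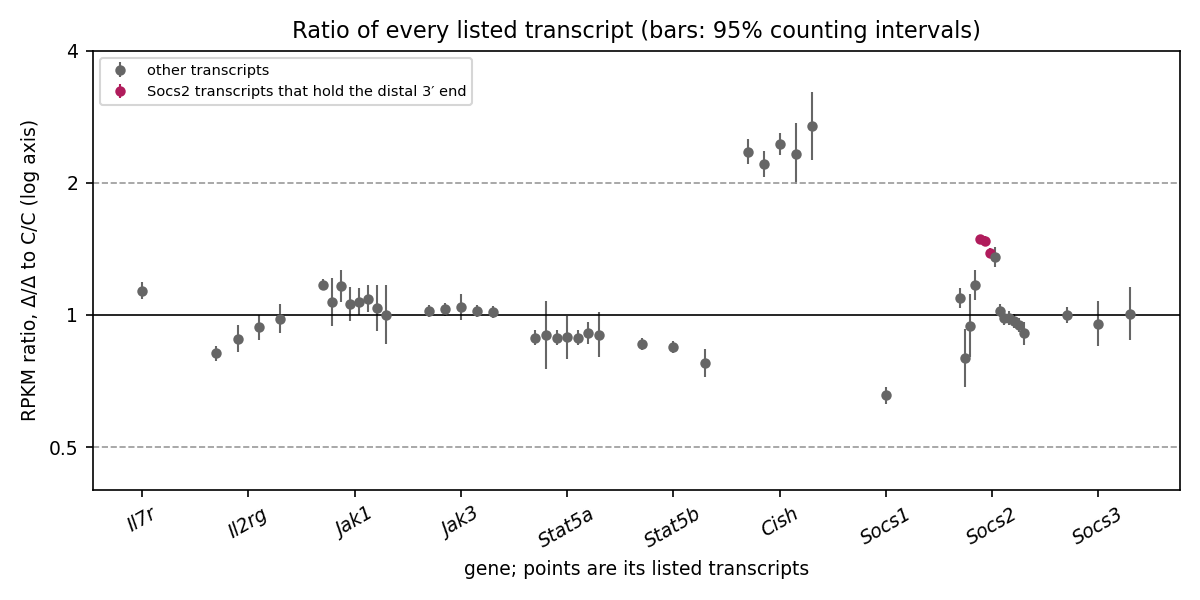
Ratio of Δ/Δ to C/C RPKM on a log axis for each of the 51 listed transcripts, with 95% counting intervals as bars and dashed lines at ratios of 2 and 0.5. The 5 Cish transcripts lie between 2.21 and 2.69, and within Socs2 the transcripts that hold the distal 3′ end (magenta) stand above most others of that gene.

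The 4 inhibitor genes went separate ways. Cish, which binds phosphorylated receptor chains and competes there with STAT5, measured 6.22 RPKM in C/C against 14.5 RPKM in Δ/Δ by ENSMUST00000167072 (chromosome 9, 107296912 to 107300551, plus strand). The ratio was 2.33 (interval 1.99 to 2.73), from 436 and 1150 reads on a transcript of 411 bases, and the log2 ratio 1.16. The longest coding transcript, ENSMUST00000085102, rested on 2364 and 6306 reads and gave 4.86 and 11.4 RPKM (ratio 2.36, interval 2.20 to 2.52). The 5 transcripts, which differ in their starts and ends, measured 3.96 to 6.22 RPKM in C/C and 9.72 to 14.5 RPKM in Δ/Δ, and their ratios ran from 2.21 to 2.69. All 5 passed the size rule, and 0 of the 51 listed transcripts were lower, beside 4.74% higher and 4.93% lower of 47420 measured transcripts. They share exons and reads, so they are not separate measurements.

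The Cish change ran along the gene. The bases that ENSMUST00000165664 holds beyond ENSMUST00000167072, 4286 bases that include sequence spliced out of the coding forms, measured 3.74 and 9.26 RPKM (ratio 2.48, interval 2.33 to 2.64). This value is the difference of the reads of nested transcripts, divided by the extra length. It assumes that a read was counted for every transcript it overlaps, which the sources do not state. The antisense RNA gene Gm17041 lies on the opposite strand (9.10 and 21.8 RPKM, ratio 2.39), with all of its 479 bases inside Cish exons, and the pseudogene Gm17040 shares 261 bases with it, also on the opposite strand (2.95 and 6.26 RPKM, ratio 2.12). Without strand, their reads and those of Cish cannot be told apart. The nearest measured genes outside Cish were close to a ratio of 1, with Mapkapk3 at 17.3 and 16.9 RPKM (6149 bases away) and Hemk1 at 9.46 and 9.68 RPKM (24300 bases away). The summed levels of the myeloid, dendritic, and erythroid and platelet markers given above were higher in the same library as Cish. The part of such cells in the level of Cish was not tested.

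Socs1, which inhibits the JAK kinases directly, had the lowest ratio of the group. ENSMUST00000038099 (chromosome 16, 10782243 to 10785536, minus strand) stood at 18.8 RPKM in C/C against 12.3 RPKM in Δ/Δ. The ratio was 0.657 (interval 0.628 to 0.687), and at -0.59 on the log2 scale it stayed inside the size rule. The table listed 1 of its 2 annotated transcripts. In C/C Socs1 stood 3.02 times above Cish (interval 2.64 to 3.48), whereas in Δ/Δ it was 0.852 of Cish (interval 0.780 to 0.933), so these inhibitors exchanged their order. The order was not exchanged by the longest coding transcripts, where Socs1 stayed 1.08 times above Cish in Δ/Δ (interval 1.03 to 1.13).

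Socs3, an inhibitor best known for acting on receptors of the IL-6 family, measured 19.3 RPKM in each library. Its ratio was 1.0 (interval 0.959 to 1.04), from 8412 and 9529 reads of ENSMUST00000054002 (chromosome 11, 117966079 to 117969186, minus strand). In C/C its level could not be told from that of Socs1 (1.03 times, interval 0.985 to 1.07), and in Δ/Δ it was 1.57 times that of Socs1 (interval 1.50 to 1.64).

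Socs2, a feedback inhibitor of growth hormone and other STAT5 receptors, was the most abundant gene of the group and its 14 listed transcripts had the widest range of ratios, 0.797 to 1.49. By ENSMUST00000128363, a non-coding form of 502 bases over its 5′ exons (chromosome 10, 95413502 to 95416668, minus strand), it measured 129 RPKM in C/C against 123 RPKM in Δ/Δ, which is a ratio of 0.949 (interval 0.915 to 0.985). By the longest coding form, ENSMUST00000020215 (95411490 to 95416857), it measured 62.3 and 86.4 RPKM, a ratio of 1.39 (interval 1.36 to 1.42). The 7 coding transcripts fell into separate ranges by where they end. The 3 that reach base 95411490 had ratios of 1.39 to 1.49, and the 4 that stop earlier had ratios of 0.970 to 1.02.

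The difference lay at the 3′ end of Socs2. ENSMUST00000150432 and ENSMUST00000172070 share their start and first exons and differ only in the last exon, of which the latter holds 1548 bases more (95411490 to 95413037), 382 of them coding. The shared bases measured 102 RPKM in C/C against 100.5 RPKM in Δ/Δ, which is a ratio of 0.984 (interval 0.948 to 1.02). The extra bases, by the difference of the reads of the pair, gave 36.1 RPKM in C/C against 73.7 RPKM in Δ/Δ. The ratio was 2.04 (interval 1.97 to 2.11), from 9541 and 22050 reads. Such a difference assumes that a read was counted for every transcript it overlaps, which the sources do not state. A second pair with another first exon, ENSMUST00000129942 and ENSMUST00000170690, gave 35.9 and 72.9 RPKM for its extra 1572 bases, a ratio of 2.03 (interval 1.97 to 2.10). These pairs share nearly all of those bases and are not separate measurements.

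**Figure D3:**
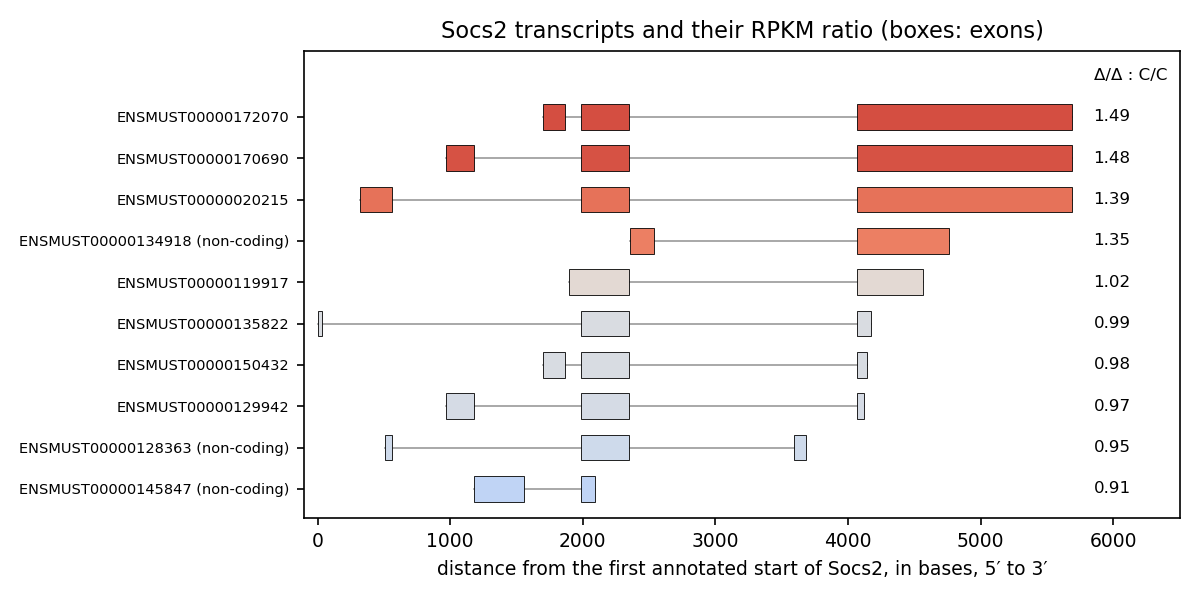
Exons of 10 of the 14 listed Socs2 transcripts by distance in bases from the first annotated start, coloured by and labelled with the ratio of RPKM, Δ/Δ over C/C; the other 4 reach further downstream and are not drawn. The 3 transcripts with the whole last exon have ratios of 1.39 to 1.49, and those that end before or early in it, with 1 non-coding exception at 1.35, of 0.908 to 1.02.

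The coding part of the last exon did not carry the whole of this difference. ENSMUST00000119917 holds all of the coding sequence and ends 40 bases after it, and it measured 78.9 and 80.7 RPKM, a ratio of 1.02 (interval 0.989 to 1.06). The transcripts with ratios of 1.39 or more carry a 3′ UTR of 1166 bases. No other gene with a deposited value overlaps the exons of Socs2. A processed pseudogene on chromosome 12, Gm9847, shares 10.3% of the 101-base windows of the longest coding transcript, and it measured 0.0290 and 0.0690 RPKM. Dividing one segment's ratio by another's removes any scaling of the libraries, and on a log2 scale the gap between the distal and the other bases was 1.07 for the second pair.

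The same gap could be formed for 29 measured genes in which 1 coding transcript extends another at the 3′ end by a single block. The block had to hold 200 bases or more, and each piece at least 200 reads summed over both libraries. The median gap was 0.22, above 0, the value at which both pieces have the same ratio. A gap of 1 or more was found for 2 of the 29 (6.90%), Socs2 and Tgif1 (1.27), and a gap of -1 or less for 0. No p-value can be given for it with 1 library per genotype. The measure for Socs2 was chosen after its transcripts had been seen.

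Levels can be ordered across the genes because RPKM is per length. By the longest coding transcripts the order in C/C was Socs2, Il2rg, Jak1, Jak3, Socs3, Socs1, Stat5b, Stat5a, Il7r and Cish. Neighbours in that order differed beyond counting error except Socs3 and Socs1. In Δ/Δ the order was Socs2, Il2rg, Jak1, Jak3, Socs3, Stat5b, Il7r, Stat5a, Socs1 and Cish, where Il7r and Stat5a could not be told apart (1.02 times, interval 0.978 to 1.06). Socs1 thus moved from rank 6 to rank 9 and Il7r from rank 9 to rank 7. For a rank among all measured genes, each gene was taken by its transcript of highest mean RPKM, as in the size rule. Socs2 then lay above 94.9% of them in C/C and 94.7% in Δ/Δ. Il7r lay above 53.7% and 58.5%, and Cish above 36.3% and 59.7%.

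Other genes of the pathway came from 6 lists with 68 genes, of which 58 were measured. Of these 1 was higher and 6 were lower in Δ/Δ, and their median log2 ratio was -0.30. The shares over all measured genes were the 6.28% and 6.66% given above. The pro-B markers had a lower median in the same library (-0.78).

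Among other cytokines and receptors that use the γ chain or the IL-7 receptor, 5 of 14 were measured, with 0 higher and 1 lower. Of all measured genes 6.28% were higher and 6.66% lower. Il21r, the IL-21 receptor chain, fell from 17.2 to 5.50 RPKM, a ratio of 0.320 (interval 0.301 to 0.341). Crlf2, which pairs with the IL-7 receptor α chain to bind TSLP, measured 34.6 and 26.5 RPKM, a ratio of 0.767. Il4ra (19.0 and 15.6 RPKM), Il2ra (5.99 and 5.75 RPKM) and Il15ra (4.94 and 6.64 RPKM), the α chains of the IL-4, IL-2 and IL-15 receptors, were within the size rule. Il7 itself, named after its value was seen, was near 0 at 0.0400 and 0.0940 RPKM (16 and 42 reads), and Il9 and Il21 were listed at 0 in both libraries.

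All 7 of the other JAK and STAT genes were measured, with 1 higher and 0 lower, beside 6.28% and 6.66% of all measured genes. Their median of 0.19 was above that of all measured genes. Stat4, which acts downstream of IL-12, rose from 3.96 to 13.0 RPKM, a ratio of 3.29 (interval 3.06 to 3.54). Stat3 (36.7 and 45.2 RPKM), the STAT of IL-6 and IL-10 signalling, Stat6 (47.6 and 31.0 RPKM), that of IL-4, and Tyk2 (14.4 and 11.9 RPKM), a JAK kinase of interferon receptors, did not pass. Stat4 was the highest ratio of any measured gene in the lists of the pathway, and Stat5a and Stat5b lay below the median of these 7.

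Of 16 other inhibitors 15 were measured, with 0 higher and 1 lower, and a median log2 ratio of -0.46. Ptpn6, which encodes the phosphatase SHP-1, fell from 251 to 103 RPKM, a ratio of 0.412 (interval 0.397 to 0.428). Ptprc, which encodes CD45, measured 76.7 and 43.3 RPKM (log2 ratio -0.82). Ptpn1 (34.6 and 34.5 RPKM) and Ptpn2 (26.7 and 29.2 RPKM), phosphatases that act on JAKs and STATs, and Pias4 (34.3 and 24.3 RPKM), a SUMO ligase of the PIAS family, also stayed within the rule. Over all measured genes 6.28% were higher and 6.66% lower, so these counts are near the background shares.

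All 10 other STAT5 target genes were measured, with 0 higher and 2 lower, beside 6.28% higher and 6.66% lower of all measured genes. Bcl2l1, the gene of the survival protein BCL-XL, fell from 53.8 to 10.9 RPKM, a ratio of 0.202 (interval 0.188 to 0.216). Bcl6, a repressor that STAT5 keeps low, fell from 2.88 to 1.15 RPKM (log2 ratio -1.04). Pim1 (155 and 173 RPKM), a kinase gene and a classic STAT5 target, and Myc (20.9 and 26.8 RPKM) were slightly above their C/C level, and Ccnd3 (210.4 and 126 RPKM), a cyclin of pre-B cell growth, and Mcl1 (168 and 110 RPKM), a survival gene, below it. Cish and Bcl2l1, both of which STAT5 can activate, thus passed the rule in opposite directions.

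The PI3K and FOXO branch, the second arm of IL-7 signalling, had 0 higher and 2 lower of 15 measured genes and a median of -0.28. These counts stand beside 6.28% higher and 6.66% lower of all measured genes. The lower genes were the insulin receptor substrates Irs1 (3.21 and 1.20 RPKM) and Irs2 (8.29 and 3.07 RPKM), with ratios of 0.372 and 0.370. The catalytic subunit gene Pik3cd (151 and 167 RPKM), the kinase gene Akt1 (122 and 98.4 RPKM), the adaptor gene Pik3ap1 (89.4 and 92.5 RPKM) and the lipid phosphatase gene Inpp5d (83.9 and 94.0 RPKM) stayed within the rule. Of 6 further transcription factors linked to Il7r 0 passed the rule, with a median of -0.59. Ets1 (161 and 111 RPKM), Foxp1 (154 and 91.6 RPKM) and Spi1 (54.1 and 34.1 RPKM) were below their C/C level, and Gabpa (33.4 and 38.9 RPKM), an activator of Il7r, was above it. Il7r itself had a ratio of 1.14 in the same libraries.

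**Figure D4:**
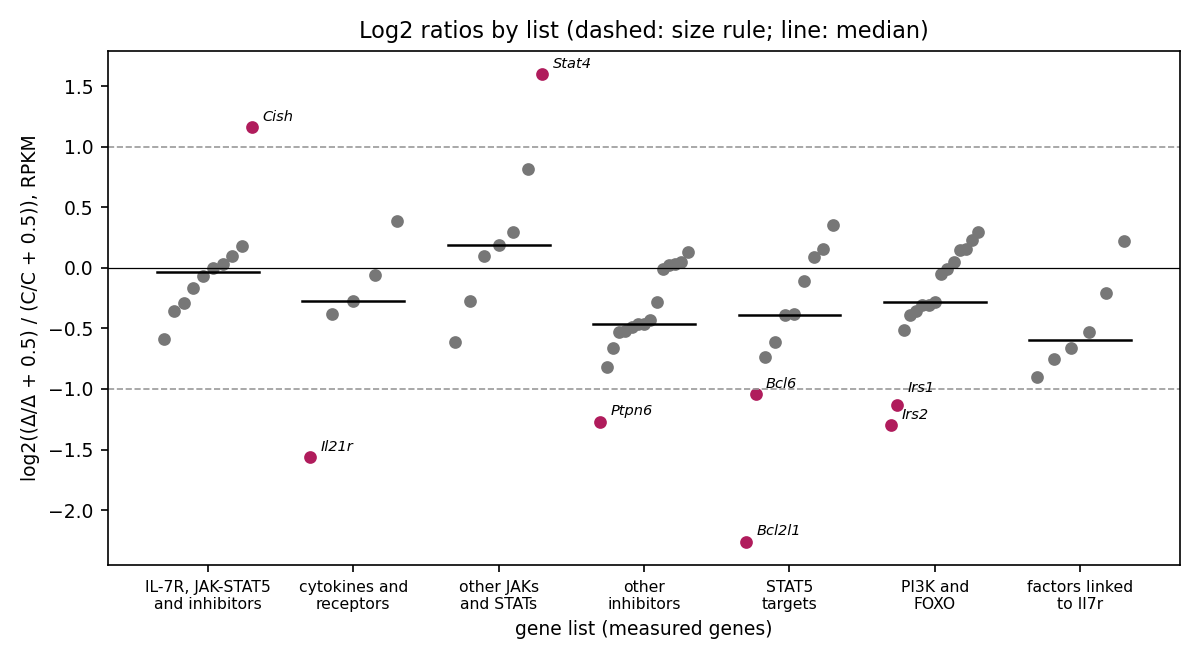
Log2 ratio of Δ/Δ to C/C, with 0.5 RPKM added, for every measured gene of the group and of the 6 lists of the pathway; dashed lines mark the size rule, black bars the medians, and genes that pass are in magenta with their names. Cish and Stat4 lie above the upper line and Il21r, Ptpn6, Bcl6, Bcl2l1, Irs1 and Irs2 below the lower one.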

How the data were processed

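RNA was ribodepleted and sequenced as 101-base paired-end reads from 1 library per genotype, per the labels' protocols. The authors deposited 1 table of RPKM values for 93615 Ensembl transcripts, rounded to 3 decimals, with columns read as C/C and Δ/Δ by their names. The submitters' processing notes name TopHat2 2.0.9, bedtools, mm9 and mm10; how reads were counted, and on which annotation, is not given in the sources used here. Identifiers were matched to GENCODE M21 (95.7%); the 4044 others entered no comparison. Depth was found as the number of reads at which low RPKM values of transcripts of 100 to 800 bases become whole reads. Within 0.1 of a read lay 96.4% of these values in C/C and 95.7% in Δ/Δ. Intervals are exact 95% intervals of a ratio of Poisson rates, with 2 reads taken as 1 fragment. The depth search, the size rule and the coverage of the intervals were tested on data simulated from Poisson counts. The other steps were not tested in this way. Python 3.11.15, numpy 2.4.6, pandas 2.3.3 and scipy 1.17.1 were used. Named pathway genes are those that passed the rule and up to 4 others of highest mean RPKM per list; 1 such gene is not reported here. The alternatives varied the added value, the scaling, the transcript and the filter. The genes, lists and rules were chosen with earlier results of these data known.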

Additional observations from a re-analysis of the deposited data

How the results depend on the processing

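Under 9 planned settings and 1 added after seeing the data (the longest protein-coding transcript of each gene), Cish was the only gene of the group called, with a log2 ratio of 1.10 to 1.26. Calls among pathway genes were 1 higher and 4 to 6 lower; 5 of the 7 genes called in the main setting were called in all 10 settings, Irs1 in 8 and Bcl6 in 4. Scaling to a common RPKM sum moved the median of all measured genes by 0.10. Of the genes not called, Socs3 went from 0.00 to -0.01 with the sum of transcripts, and Socs2 changed sign, from -0.07 to 0.02 after centring, 0.03 with either common sum, 0.13 with the sum of transcripts, 0.12 with the longest transcript and 0.47 with the longest coding one. The Stat5a share depended on the transcript, with 56.5% in C/C and 58.5% in Δ/Δ by the sum over transcripts, 27.6% and 28.8% by the longest transcript, and 45.9% and 46.8% by the longest coding transcript. No paired analysis was possible because each genotype had 1 library, and no library could be left out. At these depths 3 reads on 2 kilobases are 0.00879 RPKM in C/C against 0.00776 RPKM in Δ/Δ, so depth limits none of the 10 genes.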

Other observations

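Genes near the members, within 200 kb, were also measured, and those named here were picked because they passed the size rule. The counts stand beside 6.28% higher and 6.66% lower of all measured genes, and none was tested. Of 13 measured genes near Jak3, 2 were higher in Δ/Δ, Zfp709 (2.04 and 6.74 RPKM) and the restriction gene Bst2 (43.8 and 95.7 RPKM). Near Socs1, 1 of 4 was lower, the protamine gene Prm1 (1.44 and 0.298 RPKM). Near Jak1, 1 of 1 was lower, the adenylate kinase gene Ak4 (3.57 and 0.597 RPKM). Near Socs3, the thymidine kinase gene Tk1 was lower (69.97 and 31.5 RPKM) and Tha1 higher (0.749 and 2.06 RPKM), of 12. Near Il2rg, 1 of 10 was lower, the amino acid transporter gene Slc7a3 (4.44 and 1.85 RPKM). Near Il7r, Socs2, Stat5a and Stat5b, 0 of 2, 0 of 4, 0 of 9 and 0 of 10 measured genes passed the rule. Near Cish, 1 of 5 was higher, the antisense gene Gm17041 described above.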
